A study of Homo sapiens with 8 samples.

Results

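Polysomal RNA was compared with total RNA in fibroblasts that carried a scramble hairpin. IHCF, an immortalized line of human cardiac fibroblasts, had received this control short hairpin RNA by lentivirus, had been serum-starved for at least 6 h and had then been given TGFb for 24 h. The comparison took 4 of the 8 libraries of the study, 2 of total RNA and 2 of polysomal RNA, and the genes with at least 10 counts in 2 or more of these 4, which were 15358 of the 59385 symbols in the count table. The other 4 libraries came from the same line after knockdown of EIF4G2, a relative of the translation scaffold EIF4G1, under the same starvation and TGFb. They served here only as a repeat of the contrast in libraries that share no sample with it. All cells had TGFb, so no value measures the response to it. The labels use the term biological replicates without tying them to separate cultures. P-values therefore rest on how far these libraries differ from each other, and that difference may be technical.

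An mRNA that is being translated can carry several ribosomes at a time, and such polysomes are heavier than single ribosomes, ribosomal subunits and free RNA. RNA taken from polysomes is therefore enriched for mRNAs in active translation, and its comparison with total RNA is meant to rank mRNAs by how much of each is held there. A difference between the fractions in RNA recovery or integrity would enter the same values. It cannot be told apart from ribosome loading here and was not tested. Long reading frames can carry many ribosomes, and short ones only a few. Cardiac fibroblasts exposed to TGFb are known to become myofibroblasts, which build contractile fibres and secrete collagen. The contrast addresses which mRNAs of the scramble cells sat in polysomes in the absence of the knockdown. Whether these cells had become myofibroblasts was not tested. The method of polysome isolation and the fractions pooled are not given in the sources used here.

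Library totals ran from 18519382 to 24590030 counts. Levels are CPM, counts set to a common library size, after TMM scaling, which takes the bulk of genes as unchanged. A log2 fold change above 0 therefore means that a gene's place among all genes was higher in polysomal RNA, and no value is an amount per cell. The TMM factors were 1.42 in both total libraries and 0.730 and 0.679 in the polysome libraries, so this step moved values by about a unit of log2: with library totals alone the median log2 fold change of all tested genes went from −0.12 to −1.13. The polysome libraries were less alike than the total ones, with a biological coefficient of variation of 0.239 against 0.0371. Polysome replicate 2 stood apart in mitochondrially encoded genes, which took 17.5% of its counts against 7.12% in polysome replicate 1 and 4.06 to 4.21% in total RNA. The median length of the annotated transcript behind a count was 2889 to 2945 nt in total and 1559 to 1659 nt in polysomal RNA.

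Fibroblast markers were present in part. Of 14 markers 12 could be tested, and the summed level was 5684 and 5596 CPM in total and 6186 and 7093 CPM in polysomal RNA, most of it from the collagen gene COL1A1 and the intermediate filament gene VIM (1120.4 and 1116 CPM in total RNA). THY1, a surface marker of fibroblasts, had 237 and 243 CPM in total RNA, the receptor PDGFRA had 1.77 and 1.41 CPM, and DCN and FAP did not pass the count filter. Leukocyte markers summed to 2.44 to 7.41 CPM, with the T cell gene CD3E at 0. Cardiomyocyte markers summed to 307 to 852 CPM, with the sarcomeric myosins MYH6 and MYH7 at 0 in all 4 libraries and nearly all of the sum from the transcription factor NKX2-5 (306 and 307 CPM in total, 635 and 826 in polysomal RNA). Endothelial markers summed to 38.9 to 133 CPM and mural markers to 110 to 489 CPM, with KCNJ8, ABCC9 and MYH11 at 0. Epithelial markers summed to 1394 to 3294 CPM, nearly all of it from the keratins KRT8 (945 and 962 CPM in total RNA) and KRT18 (441 and 452 CPM), with ESRP1 and PAX2 at 0. Their part in the results was not tested. In bulk RNA fewer cells of a type and less RNA per cell cannot be told apart.

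Polysomal and total RNA differed for most genes. Of the 15358 tested genes 4974 (32.4%) were called higher and 5430 (35.4%) lower in polysomal RNA, 67.7% together, at an adjusted p under 0.05 by edgeR's quasi-likelihood test with Benjamini-Hochberg adjustment. Among these, 3689 were higher and 4226 lower by at least 2-fold, and 1576 and 2243 by at least 4-fold. In 10403 of the 10404 called genes both polysome libraries lay on the same side of both total libraries. Over all tested genes polysomes were above in 6170 and below in 7082. With library totals alone 2264 genes were called higher and 8868 lower, so that 20.3% of the calls were higher against 47.8% with TMM. With so many calls the size of a change and its rank among all genes say more than the call itself, and each group of genes is read against the median of −0.12 and the shares of 32.4% and 35.4%. Group counts are over tested members. Cytokines (29 of 35 tested), selenoproteins (19 of 24), zinc finger genes (41 of 46), giant cadherins and lipoprotein receptor relatives (32 of 36), replication histones (18 of 22) and nuclear long RNAs (15 of 19) had the most members under the count filter, and outside the cell type markers every other group had at most 3. The filter left 269 genes just inside it, with a count of 10 as the deciding value, and 284 just outside, with 9.

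**Figure D1:**
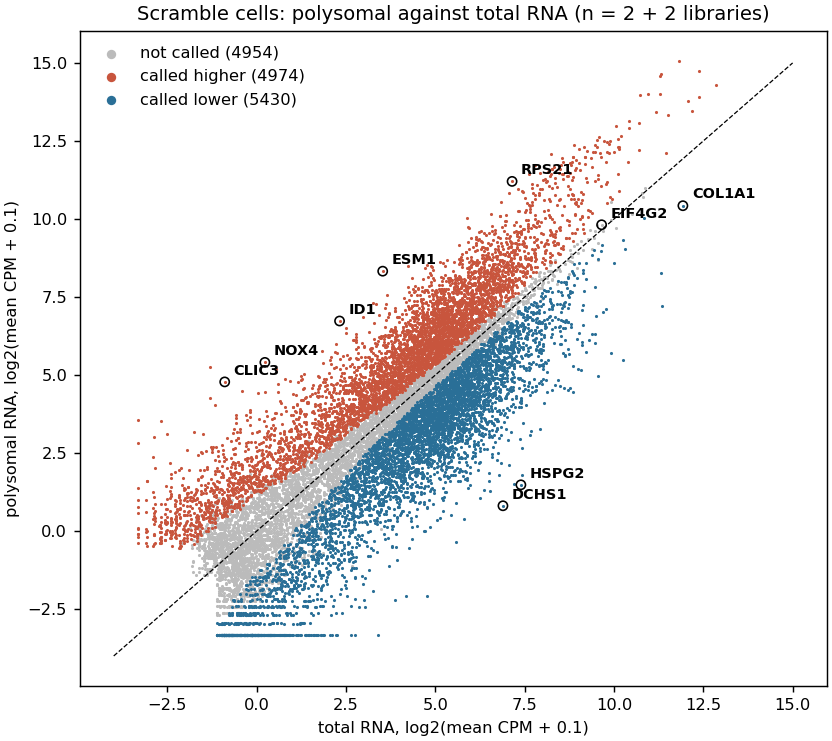
Mean level of each of the 15358 tested genes in polysomal RNA (vertical) against total RNA (horizontal), both as log2(mean CPM + 0.1) over 2 libraries, coloured by edgeR call. Circles mark NOX4, ID1, CLIC3, HSPG2, DCHS1, EIF4G2, ESM1, COL1A1 and RPS21. Around the dashed line of equal level NOX4, ID1 and CLIC3 lie far above it while HSPG2 and DCHS1 lie far below.

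The 5 marker genes stand at the extremes of the contrast. NOX4 encodes an NADPH oxidase that makes hydrogen peroxide and is a known TGFb target (chr11:89324356-89498187, minus strand, GRCh38). It stood at 1.19 and 0.954 CPM in total and 42.6 and 42.0 CPM in polysomal RNA, a log2 fold change of 5.29 ± 0.18 (SE; edgeR adjusted p = 8.09e-05). ID1, an inhibitor of DNA binding by other transcription factors (chr20:31605283-31606515, plus strand), stood at 4.60 and 5.19 CPM in total and 114 and 98.4 CPM in polysomal RNA (4.44 ± 0.15). CLIC3, a chloride intracellular channel protein (chr9:136994635-136996803, minus strand), went from 0.647 and 0.229 to 30.6 and 24.2 CPM (5.92 ± 0.39), with 19 and 6 counts behind the total values. In each of these 3 genes both polysome libraries were many times above both total libraries, and the total libraries held little of the mRNA.

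HSPG2 and DCHS1 lay at the opposite end. HSPG2 encodes perlecan, the large heparan sulfate proteoglycan of basement membranes (chr1:21822245-21937297, minus strand). It stood at 181 and 155 CPM in total and 4.90 and 0.489 CPM in polysomal RNA, a log2 fold change of −5.93 ± 0.69 (edgeR adjusted p = 0.000906). The polysome libraries were far below the total ones but differed from each other 10-fold, on 88 and 8 counts. Leaving out either total library ended the HSPG2 call (edgeR adjusted p = 0.193 and 0.197), with log2 fold changes of −6.05 and −5.82. DCHS1, a giant cadherin of the Dachsous and Fat pathway (chr11:6621323-6655854, minus strand), stood at 124 and 113 CPM in total and 2.40 and 0.916 CPM in polysomal RNA (−6.14 ± 0.34; edgeR adjusted p = 9.99e-05). DCHS1 kept its call without each library in turn.

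The 3 high genes were also higher without TMM, by smaller factors. As a plain share of counts, with no further scaling, polysomal RNA held 19.6 times as much NOX4 as total RNA, 10.8 times as much ID1 and 31.1 times as much CLIC3. Among the 12816 tested genes with at least 1 CPM in total RNA, the median of this unscaled ratio was 0.437, and 4 genes reached 10, NOX4, ID1 and ESM1 among them. CLIC3 had under 1 CPM in total RNA and is not among these genes. EIF4G2, the gene targeted in the other arm of the study, was not called. It stood at 809.6 and 802 CPM in total and 900.1 and 902 CPM in polysomal RNA, with both polysome libraries slightly above both total ones. Its log2 fold change was 0.16 ± 0.11 (edgeR adjusted p = 0.234), and 0.11 and 0.16 without polysome replicate 1 and 2. With library totals alone it was −0.85, where the median of all genes was −1.13.

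**Figure D2:**
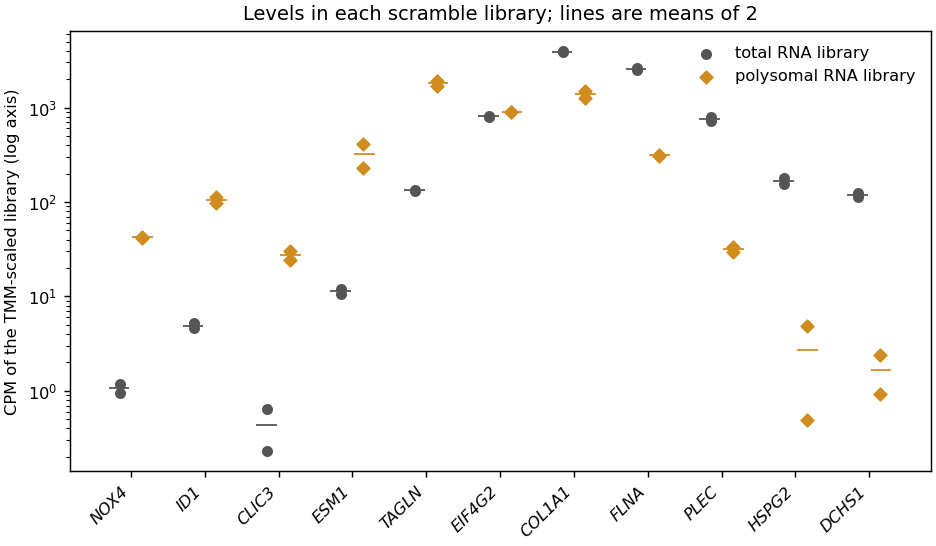
Level (CPM of the TMM-scaled library, log axis) of 11 genes in each of the 4 libraries, 1 point per library, with lines at the means of 2. The polysome points of NOX4, ID1 and CLIC3 lie above their total points, those of HSPG2 and DCHS1 lie far below theirs, and those of EIF4G2 lie only slightly above theirs.

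Ribosomal proteins were 4 of the 10 leading genes higher in polysomes. Among called genes with a mean log2 CPM of at least 3, ESM1, which encodes the small secreted proteoglycan endocan, came first: it stood at 10.7 and 12.1 CPM in total and 228 and 415 CPM in polysomal RNA (4.81 ± 0.34), with the polysome libraries apart from each other but both far above total RNA. ID1 came next. RPS29 (4.15), RPS21 (4.06), RPL39 (3.85) and RPS20 (3.85), all ribosomal proteins, followed, with NPW, the precursor of neuropeptide W (4.03), the prenylated Rab acceptor RABAC1 (3.91), the ATP synthase subunit ATP5ME (3.88) and the calcium-binding protein S100A11 (3.81). S100A11 was the most abundant of those outside the ribosome, at 196 and 199 CPM in total and 2825 and 2714 CPM in polysomal RNA. RPS21 rose from 139 and 144 to 2506 and 2216 CPM.

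Genes with long coding parts, from 2850 nt in ADAMTS15 to 17385 nt in AHNAK2, led the other end. After DCHS1 and HSPG2 came AHNAK2, a giant scaffold protein, at 156 and 141 CPM in total and 4.18 and 1.28 CPM in polysomal RNA (−5.74 ± 0.43). NES, the intermediate filament protein nestin, stood at 171 and 174 CPM in total and 2.28 and 4.52 CPM in polysomal RNA (−5.67 ± 0.29). KMT2D, a histone H3 methyltransferase (−5.28), BCL9L, a co-activator of beta-catenin (−5.24), ADAMTS15, a secreted metalloprotease (−5.14), TNRC18 (−5.02), MAP1A, a microtubule-associated protein (−4.95), and PRRC2B (−4.78) completed the 10. All of these were clearly expressed in total RNA and low in both polysome libraries: PRRC2B, for example, had 183 and 163 CPM in total and 7.52 and 5.01 CPM in polysomal RNA.

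Among genes of the translation machinery, cytosolic ribosomal protein mRNAs were higher in polysomes almost without exception. Of 47 large-subunit genes 45 were called higher and none lower, with a median log2 fold change of 2.82, and all 30 tested of 32 small-subunit genes were called higher, with a median of 2.97. Called values ran from 1.35 for RPL3 to 3.85 for RPL39 in the large subunit, and from 1.98 for RPS10 to 4.15 for RPS29 in the small. RPL17 (0.53 ± 0.44) and RPL36A (−0.68 ± 0.67) were not called, and both overlap readthrough genes, which leaves their counts uncertain. Many ribosomal protein genes also have processed pseudogenes that can share reads with them, so single values are less certain than the pattern. Together these genes took 4.27 to 4.46% of counts in total RNA and 12.7 to 17.9% in polysomal RNA.

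Vertebrate ribosomal protein mRNAs are known for a 5′ terminal oligopyrimidine run (TOP), a C at the first base followed by further C or T, through which the mTOR pathway controls their translation. Below are 30-base windows from the RefSeq table of gene starts (GRCh38.p14), 10 bases before the start and 20 from it, read 5′ to 3′ on the gene's strand. They were chosen to set ribosomal proteins that rose against other genes with and without such a run. Capitals mark an unbroken run of C and T that opens with C at the start and has at least 4 further C or T.
RPL39, chrX:119791611-119791640, minus strand: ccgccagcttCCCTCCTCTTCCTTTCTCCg
RPS21, chr20:62387093-62387122, plus strand: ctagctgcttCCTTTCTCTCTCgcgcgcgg
RPL24, chr3:101686699-101686728, minus strand: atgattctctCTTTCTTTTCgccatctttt
TPT1, chr13:45341164-45341193, minus strand: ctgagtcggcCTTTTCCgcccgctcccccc
RACK1, chr5:181243887-181243916, minus strand: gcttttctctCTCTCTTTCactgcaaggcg
EEF1A1, chr6:73521013-73521042, minus strand: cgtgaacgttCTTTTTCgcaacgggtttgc
EEF2, chr19:3985444-3985473, minus strand: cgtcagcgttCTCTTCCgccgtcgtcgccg
EIF4B, chr12:53006446-53006475, plus strand: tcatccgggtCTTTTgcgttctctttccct
RPS29, chr14:49598691-49598720, minus strand: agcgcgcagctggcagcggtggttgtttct
ID1, chr20:31605279-31605308, plus strand: ccgcactctcattccacgttcttaactgtt
CLIC3, chr9:136996549-136996578, minus strand: gtccccacccgcgcctgaccgcggcagctc
HSPG2, chr1:21937291-21937320, minus strand: agagggccgcgctgtcccgagctggccggc

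The run was searched on the gene's own strand, at the listed start only, in the 7200 tested protein-coding genes with a single listed start. It was present in 5.50% of them, in 24 of 30 large-subunit genes (80.0%) and in 16 of 22 small-subunit genes (72.7%). Among genes called higher 7.01% had it, among those higher by at least 4-fold 12.9%, and among those called lower 4.52%. Outside the ribosomal proteins the shares were 5.53% of the genes called higher and 4.52% of those called lower, and the median log2 fold change was 0.02 for the 356 genes with the run and −0.17 for the 6792 without. The sequences above show the same spread: RPS29, ID1 and CLIC3 have no run at the listed start and were among the highest genes, while EIF4B has one and was lower. A run in these letters is a description of the listed start, which need not be the start used in these cells.

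Other mRNAs of the elongation machinery were split. Of 14 tested genes of a list of elongation factors and further TOP mRNAs 9 were called higher and 1 lower (median 1.34). TPT1, the tumour protein TCTP, rose from 468 and 479 to 5653 and 4902 CPM (3.48), and RACK1, a scaffold on the small subunit, from 668 and 700.5 to 4769.5 and 4248 CPM (2.72). EEF1A1, which brings aminoacyl-tRNA to the ribosome and was among the most abundant mRNAs, rose from 5258 and 5402 to 17764 and 13202 CPM (1.54). With library totals alone EEF1A1 had 0.54 and was not called (edgeR adjusted p = 0.0962). EEF2, the translocation factor, had a log2 fold change of 0.10 ± 0.17 and was not called. PABPC1, the cytoplasmic poly(A)-binding protein, was the member called lower, at 822 and 842 CPM in total and 153 and 108 CPM in polysomal RNA (−2.67 ± 0.19). EEF1A1 and EEF2 both have the run shown above, and PABPC1 is not shown.

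Initiation factors divided within their complexes. Of 38 genes 21 were called higher and 8 lower, with a median of 0.62 that was −0.39 with library totals alone. EIF1, which monitors start codon choice, rose from 254 and 265 to 2380.3 and 2519 CPM (3.24). EIF4EBP1, the repressor that binds eIF4E, rose from 98.7 and 99.1 to 829.7 and 644 CPM (2.90). EIF4E itself, the cap-binding protein, had a log2 fold change of 0.09 ± 0.11 and was not called.

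The eIF3 complex, which joins the small subunit to mRNA, held both directions. EIF3K rose by 2.44, EIF3I by 2.22, EIF3F by 2.15, EIF3H by 2.15 and EIF3E by 2.11, whereas EIF3A, its largest subunit, stood at 312 and 306 CPM in total and 26.6 and 19.1 CPM in polysomal RNA (−3.76 ± 0.19) and EIF3B had −0.75. EIF3C has a near-identical copy and its value is uncertain. The scaffolds differed too. EIF4G1 stood at 628 and 628 CPM in total and 55.6 and 83.3 CPM in polysomal RNA (−3.18 ± 0.22), with both polysome libraries far below both total libraries, and EIF4G3 had −1.83. EIF4G2, at 0.16, was not called. EIF4H (−1.84), EIF5B (−1.23) and EIF4B (−0.74) were also lower, as was EIF4A1, whose low counts share a locus with a readthrough gene.

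**Figure D3:**
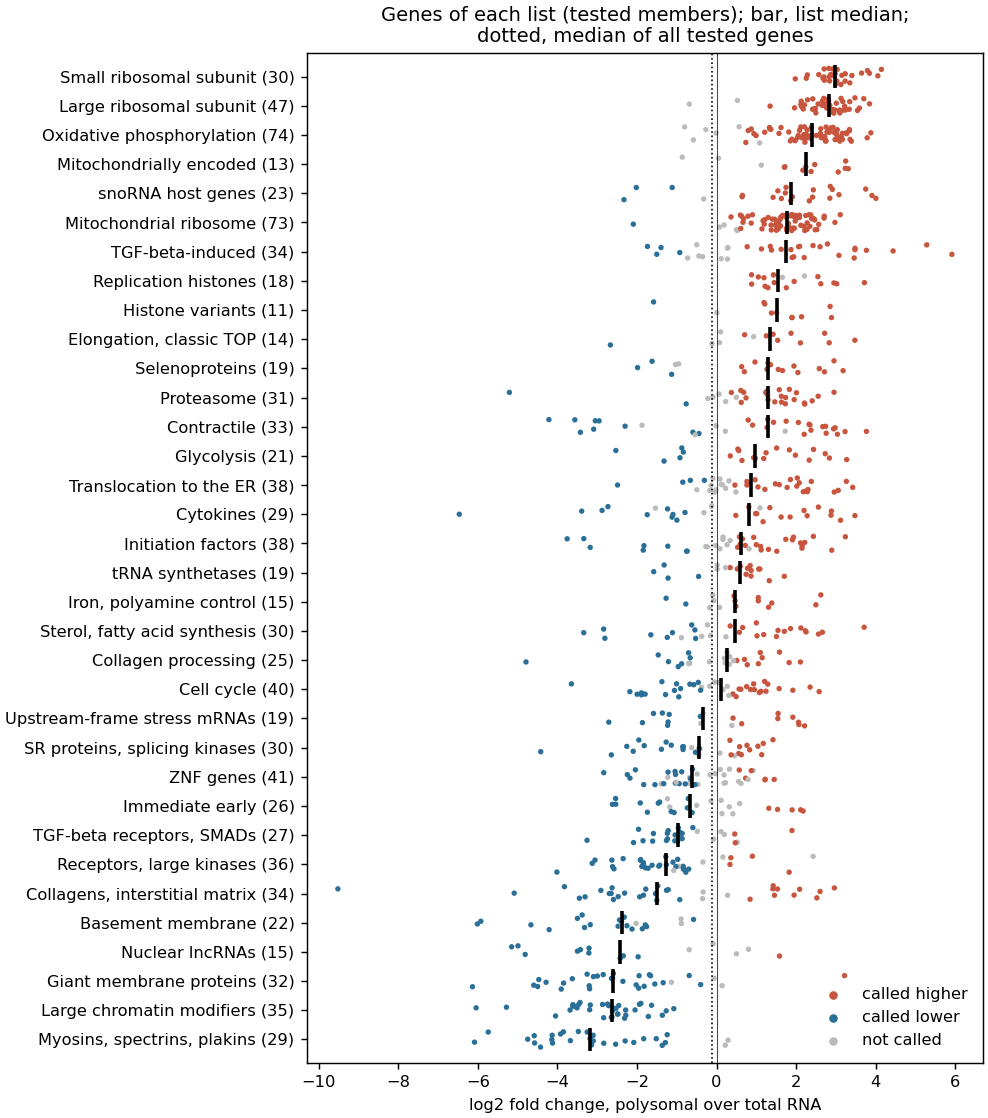
Log2 fold change of polysomal over total RNA (horizontal) for each tested member of the gene groups (their number in brackets), coloured by edgeR call, with the group median as a bar and the median of all tested genes, −0.12, as a dotted line. Ribosomal protein and respiratory chain genes lie to the right and basement membrane, giant cytoskeletal and chromatin genes to the left. The leftmost matrix and cytokine points, COL5A3 and HGF, had no polysome counts, so the filter fixed their direction and their plotted values depend on the prior count.

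Nuclear genes of the mitochondrion went with the ribosomal proteins. Of 74 tested respiratory chain and ATP synthase genes 68 were called higher and none lower (median 2.39), and of 73 tested mitochondrial ribosomal protein genes 68 were called higher and 1 lower (median 1.76). ATP5PO, a subunit of the ATP synthase stalk, rose from 21.1 and 20.4 to 222 and 214 CPM (3.39), and UQCR10, a small subunit of complex III, by 3.26. ATP5F1B, the catalytic beta subunit, is larger and abundant and had 0.80, which was −0.21 with library totals alone. MRPL38 (−2.09 ± 0.47) was the mitochondrial ribosomal gene called lower.

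Mitochondrially encoded mRNAs are translated inside the organelle by its own ribosomes, not in cytosolic polysomes. Of the 13 genes 10 were called higher and none lower (median 2.25). MT-CO2, a cytochrome c oxidase subunit, stood at 3548 and 3708 CPM in total, 20392 CPM in polysome replicate 1 and 48024 CPM in polysome replicate 2 (3.24 ± 0.44). All 13 genes were higher in polysome replicate 2 than in replicate 1, by 2.10 to 3.30 times, and without polysome replicate 2 the median of the list was 1.14. MT-ATP8 (1.13 ± 0.47), MT-ND5 (0.05 ± 0.34) and MT-ND4L (−0.86 ± 0.49) were not called.

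**Figure D4:**
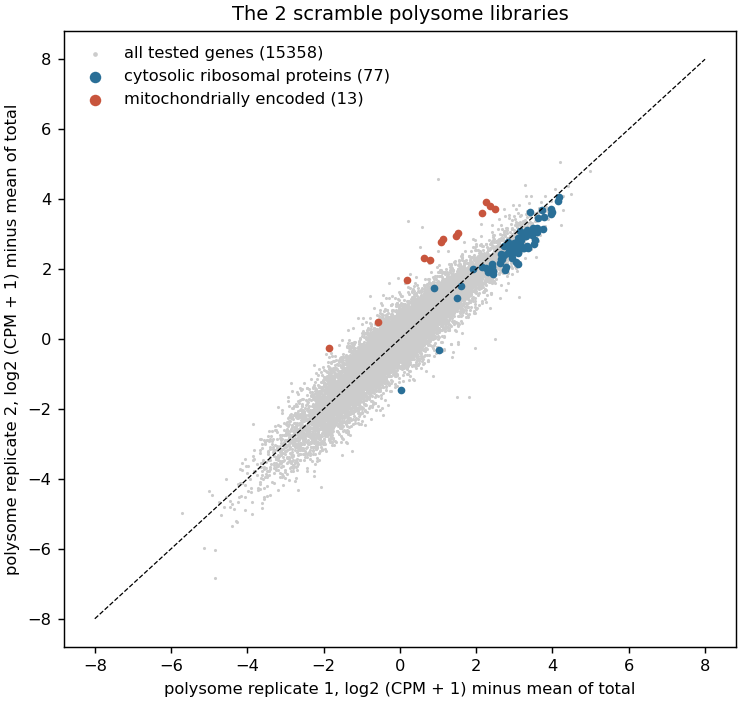
Polysome replicate 2 (vertical) against polysome replicate 1 (horizontal), each as the log2(CPM + 1) difference from mean total RNA, for all 15358 tested genes, with 77 cytosolic ribosomal protein and 13 mitochondrially encoded genes coloured. The 13 mitochondrially encoded genes lie above the dashed line of equality, by 2.10 to 3.30 times in level, and most ribosomal protein genes lie somewhat below it.

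TGFb acts through a pair of serine/threonine kinase receptors that phosphorylate SMAD proteins, which then enter the nucleus and switch on target genes. Genes listed as commonly induced by TGFb or BMP stood high in polysomes. Of 34 tested targets (of 37 listed) 22 were called higher and 4 lower, with a median of 1.75. The list holds the high marker genes NOX4, ID1 and CLIC3 and was written with earlier results of these data known. Its counts are therefore a description and no independent support. Members of the ID family differed in size: beside ID1, ID3 rose from 20.2 and 20.7 to 289.8 and 268 CPM (3.77) and ID2 from 6.54 and 5.76 to 23.5 and 21.6 CPM (1.87), while ID4, at 1.67 and 1.56 CPM in total and 1.56 and 1.95 CPM in polysomal RNA, was not called. IL11, a cytokine of cardiac fibrosis, rose from 5.52 and 3.81 to 49.1 and 55.6 CPM (3.48 ± 0.21). EDN1, the vasoconstrictor endothelin, rose from 28.4 and 32.0 to 254 and 412 CPM (3.46). In IL11 and EDN1 the lowest polysome library was several times above the highest total library.

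Further targets were also higher. AMIGO2, an adhesion molecule, had 3.48, SERPINE2, a protease inhibitor, 3.08, PMEPA1, a feedback inhibitor of SMAD signalling, 2.79, and TGFBI, a secreted adhesion protein, 2.60. CCN2, the connective tissue growth factor, rose from 143 and 139 to 572 and 629 CPM (2.09). The ligand TGFB1 rose from 200.1 and 214 to 412 and 644 CPM (1.35), whereas TGFB2 (−0.44 ± 0.17) and the activin subunit INHBA (0.29 ± 0.12) were not called. Among inhibitory SMADs, SMAD7 (0.28 ± 0.13) and SMAD6 (−0.50 ± 0.28) were not called either. The 4 members called lower were COL1A1 (−1.50), FN1 (−0.92), the metalloprotease ADAM12 (−1.40) and LRRC15 (−1.74).

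Of 27 receptors and signal transducers of the same pathway 3 were called higher and 19 lower (median −0.96). With the trend on transcript length removed the median was 0.19, next to 0.18 for all genes. TGFBR2, the type II receptor, stood at 215 and 210.2 CPM in total and 60.9 and 78.9 CPM in polysomal RNA (−1.61 ± 0.15), and TGFBR1, the type I receptor, had a log2 fold change of −1.23 ± 0.12. SMAD3 fell from 118 and 117 to 30.9 and 34.6 CPM (−1.85), and SMAD4, the common partner, had −0.96. SKI, a repressor of SMADs, had −3.26. BAMBI, a decoy receptor, was called higher (1.90), and so was SMAD2 (0.46). With a coding part from 900 to under 2700 nt, 13 of 20 targets were called higher and 1 lower (median 1.5). In the same range 1 was higher and 14 were lower of 20 receptors and transducers (median −0.97). Of all protein-coding genes 11.8 to 47.2% were called higher and 21.1 to 51.2% lower in the length bins of this range. The range is wide and untranslated length was not held equal in it, so the part of length in this split was not tested.

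Collagens and other matrix proteins, the secreted product of myofibroblasts, were on balance lower in polysomes. Of 34 tested matrix genes (of 37 listed) 10 were called higher and 21 lower, with a median of −1.49. COL1A1, which forms type I collagen with COL1A2 (chr17:50183289-50201632, minus strand), stood at 3944 and 3852 CPM in total and 1499 and 1252 CPM in polysomal RNA (−1.50 ± 0.15). COL1A2 had 272 and 272 CPM in total and 135 and 52.5 CPM in polysomal RNA (−1.53 ± 0.42). Both chains were below total RNA in each polysome library, by more in replicate 2. FN1, fibronectin, stood at 1257 and 1161 and 774 and 499.8 CPM (−0.92 ± 0.22).

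Other fibrillar and fibril-associated chains were lower by larger factors. COL12A1 stood at 533 and 493 CPM in total and 41.4 and 30.9 CPM in polysomal RNA (−3.83 ± 0.18), COL3A1 had −3.45, COL5A2 −2.65, the tenascin TNC −2.47 and the proteoglycan VCAN −1.84. COL5A3 had 129 and 99 counts in total RNA and 0 in both polysome libraries, which makes it at least 46.9-fold lower against a floor of 3 counts over the group. It is among the 21 called lower but passed the count filter only through total RNA, so its direction was fixed by the filter. The 10 members that rose were smaller proteins. TGFBI stood at 937 and 959 CPM in total and 5617 and 5909 CPM in polysomal RNA (2.60 ± 0.14), and SPARC, a collagen-binding glycoprotein, at 1343 and 1354 and 3117 and 4131 CPM (1.43 ± 0.18). MFAP2, a microfibril protein, rose by 2.52 and the proteoglycan BGN by 1.53. By coding length the list separated almost completely. Of 23 members with 2700 nt or more 21 were called lower and none higher, and of 11 shorter ones 10 were called higher and none lower. Of all protein-coding genes 77.0 to 89.1% were called lower in the length bins from 2700 nt up, and 11.8 to 82.0% higher in the shorter bins. With the trend on transcript length removed the median of the list went from −1.49 to 0.06, while that of the TGFb targets went from 1.75 to 1.70.

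Basement membrane genes were lower without a called exception in the other direction. Of 22 tested 18 were called lower and none higher (median −2.38, and −1.13 with the trend on transcript length removed). LAMA5, a laminin alpha chain, stood at 251 and 238 CPM in total and 9.47 and 9.77 CPM in polysomal RNA (−4.67 ± 0.12), and AGRN, the proteoglycan agrin, at 452 and 426 and 23.2 and 24.3 CPM (−4.21 ± 0.12). LAMB1 (−2.13), LAMC1 (−2.25) and NID1 (−2.39) fell by similar factors. COL4A1, the main type IV collagen chain, was near the threshold, at 429 and 405 CPM in total and 335 and 224 CPM in polysomal RNA (−0.58 ± 0.20; edgeR adjusted p = 0.0478). The COL4A1 call was lost with size factors from another method (edgeR adjusted p = 0.069) and without either total library (0.101 and 0.0572). Its partner COL4A2 had −1.87.

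Enzymes and chaperones that process collagen were mixed. Of 25 genes 9 were called higher and 8 lower (median 0.26, and −0.75 with library totals alone). LOX, which crosslinks collagen, rose from 49.7 and 51.1 to 218 and 218 CPM (2.11), and LOXL1 by 1.58, whereas LOXL2 had −1.21. PPIB, a prolyl isomerase of the endoplasmic reticulum, rose by 1.83 and the prolyl hydroxylase subunit P4HA1 by 1.10. SERPINH1, the collagen chaperone, had 0.26 ± 0.15 and was not called. ADAMTS14, a procollagen peptidase, was the lowest of these at −4.79.

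Contractile genes were divided within a single cell structure. Of 33 genes 19 were called higher and 9 lower (median 1.29). Of 14 with a coding part under 900 nt 13 were higher and none lower, and 8 of 9 with 2700 nt or more were lower and none higher. Of all protein-coding genes 59.1 to 82.0% were called higher in the length bins under 900 nt, and 77.0 to 89.1% lower in those from 2700 nt up. TAGLN, the small actin-binding protein transgelin, rose from 134 and 132 to 1928 and 1693 CPM (3.77 ± 0.14), and CNN1, calponin, from 15.4 and 14.9 to 106 and 127 CPM (2.94). MYL12B, a myosin light chain, rose from 241 and 246 to 2032 and 1976 CPM (3.04). ACTA2, the smooth muscle actin used to mark myofibroblasts, was scarce in both fractions, at 4.67 and 5.80 CPM in total and 27.4 and 20.8 CPM in polysomal RNA (2.20 ± 0.22). ACTB, the cytoskeletal actin, stood at 7277 and 7452 CPM in total and 16853 and 22933 CPM in polysomal RNA (1.43), and with library totals alone it had 0.42 and was not called (edgeR adjusted p = 0.131).

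Large actin crosslinkers and adhesion adaptors went the other way. FLNA, filamin A, stood at 2623 and 2525 CPM in total and 308 and 314 CPM in polysomal RNA (−3.05 ± 0.13), FLNC had −4.22, TLN1, talin, −3.42 and VCL, vinculin, −2.30. Myosin heavy chains, spectrins and plakins were lower in 27 of 29 tested genes and higher in none (median −3.18, and −1.25 with the trend on transcript length removed). MYH9, the non-muscle myosin heavy chain, stood at 2614 and 2544 CPM in total and 171 and 123 CPM in polysomal RNA (−4.13 ± 0.21). Its light chain MYL12B, in the same motor, had risen by 3.04. PLEC, plectin, went from 786 and 718 to 33.5 and 29.6 CPM (−4.58), and AHNAK from 1261 and 1157 to 48.0 and 41.9 CPM (−4.75).

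Cell surface receptors, kinases and giant adhesion molecules were also mostly lower. Of 32 tested giant cadherins and lipoprotein receptor relatives 28 were called lower and 1 higher (median −2.60, and −0.81 with the trend on transcript length removed). NOTCH1, the Notch receptor, had −4.60, IGF2R −4.47 and LRP1 −3.19. The member called higher was PCDH1, a protocadherin, which rose from 1.23 and 0.954 to 10.3 and 10.1 CPM (3.22 ± 0.25). Of 36 tested growth factor receptors, kinases and mTOR pathway genes 27 were called lower and 4 higher (median −1.27). With the trend on transcript length removed the median of these 36 genes was −0.02, next to 0.18 for all genes. PRKDC, the DNA-dependent kinase, had −4.01, MTOR −2.35 and EGFR −1.84, against 1.83 for MAP2K2 and 0.90 for MAPK3.

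Transcription and chromatin genes ranged from uniformly lower to mixed. All 35 large chromatin regulators were called lower (median −2.63, and −1.02 with the trend on transcript length removed). All 35 have a coding part of 2700 nt or more, and in the length bins from there up 77.0 to 89.1% of all protein-coding genes were lower. Among them were KMT2B (−4.05), TRRAP (−3.55) and SMARCA4, an ATPase of the SWI/SNF remodeller, which fell from 208 and 199 to 37.8 and 44.3 CPM (−2.31). Histones, which are small, were the reverse: 15 of 18 replication-dependent genes and 9 of 11 variant genes were called higher (medians 1.55 and 1.51). Most replication-dependent histone mRNAs lack a poly(A) tail, and these libraries were made with poly(A) selection. Zinc finger genes were called higher in 6 and lower in 17 of 41 (median −0.60, and 0.26 with the trend on transcript length removed).

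Immediate early genes, which growth signals switch on within minutes, were divided even inside the JUN family. JUN fell from 242 and 239.6 to 35.7 and 42.7 CPM (−2.62 ± 0.13), whereas JUND rose from 72.6 and 74.6 to 295 and 344 CPM (2.12 ± 0.12) and JUNB from 19.1 and 20.4 to 80.4 and 67.3 CPM (1.90). All 3 encode partners in the same AP-1 complex. ATF3 rose by 2.18, MYC (0.14 ± 0.19) and FOS (0.12 ± 0.42) were not called, and DUSP4, a phosphatase, had −2.54. Over the list 5 were called higher and 12 lower of 26 (median −0.66). Cytokines and growth factors were called higher in 15 and lower in 10 of 29 (median 0.81, and −0.20 with library totals alone). GDF15 had 2.88, VEGFB 2.56 and IL6 1.85, against −1.74 for CXCL12, −2.88 for CSF1 and −1.23 for VEGFA. HGF, among the 10 called lower, had no polysome count and passed the filter only through total RNA, which fixed its direction.

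Genes with upstream reading frames that respond to stress gave no common direction, with 8 called higher and 8 lower of 19 (median −0.34, and 0.43 with the trend on transcript length removed). ATF4, the stress transcription factor whose upstream frames hold back its translation in resting cells (chr22:39519695-39522685, plus strand), rose from 218 and 225 to 1031 and 1028 CPM (2.21 ± 0.11). CEBPB rose by 1.55, and BRD1 had −2.71. Aminoacyl-tRNA synthetases, which charge tRNAs, were called higher in 12 and lower in 4 of 19 (median 0.60, and −0.41 with library totals alone): SARS1 rose from 121 and 118 to 401 and 376 CPM (1.70), and AARS1 fell from 159.8 and 161 to 54.8 and 52.4 CPM (−1.58). Selenoproteins, which read a stop codon as selenocysteine, were called higher in 14 and lower in 3 of 19 tested (median 1.29). With the trend on transcript length removed their median was 0.52, next to 0.18 for all genes. GPX4, a lipid peroxide reductase, stood at 2.95 and the thioredoxin reductase TXNRD1 at −1.62. Iron-regulated and polyamine genes were called higher in 9 and lower in 2 of 15, with OAZ1, the frameshifted antizyme, at 2.62 and the ferritin light chain FTL at 1.39 (0.39 and not called with library totals alone, edgeR adjusted p = 0.166), against −0.77 for the transferrin receptor TFRC. The median of that list was 0.47, and −0.54 with library totals alone.

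Proteasome, glycolytic and lipid genes held both directions. Proteasome subunits were called higher in 24 and lower in 2 of 31 (median 1.29), with the small subunit SEM1 at 2.95 and the large base subunit PSMD1 at −0.76. PSMA2, a small core subunit, was the other member called lower, on low counts of 46 and 26 in total and 0 and 1 in polysomal RNA. It passed the count filter only through total RNA, which fixed its direction. Glycolytic genes were called higher in 16 and lower in 5 of 21 (median 0.98, and −0.05 with library totals alone). GAPDH rose from 2437 and 2522 to 17728 and 15261 CPM (2.73) and LDHA from 1102 and 1109 to 6021 and 5970.5 CPM (2.44), while HK2, a hexokinase, had −2.53. Sterol and fatty acid genes were called higher in 16 and lower in 9 of 30 (median 0.46, and −0.55 with library totals alone): IDI1, of the mevalonate pathway, rose by 2.56, and FASN, the multidomain fatty acid synthase, fell from 516 and 487 to 73.9 and 69.3 CPM (−2.81).

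Genes of the secretory pathway were called higher in 22 and lower in 4 of 38 (median 0.87, and −0.15 with library totals alone). The translocon subunit SEC61B rose by 3.06 and the translocon-associated SSR4 by 3.27, while the chaperones HSPA5 (−0.66) and CANX (−0.85) were lower. Cell cycle genes were called higher in 17 and lower in 16 of 40 (median 0.10, and −0.91 with library totals alone). PCNA, the sliding clamp, rose from 199 and 203 to 1219 and 1187 CPM (2.58), the inhibitor CDKN1A had 1.92, and MKI67, the large proliferation antigen, fell from 333 and 313 to 28.9 and 22.5 CPM (−3.65). Splicing factors, many of which regulate their own mRNAs, were called higher in 11 and lower in 14 of 30 (median −0.44), from 1.42 for SRSF7 to −4.42 for SRRM2.

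Among RNAs without a long reading frame, 2 lists were examined. Of long RNAs known to stay mostly in the nucleus, of which 15 were tested, 10 were called lower and 1 higher (median −2.42). MALAT1 stood at 77.8 and 77.9 CPM in total and 10.0 and 6.72 CPM in polysomal RNA (−3.21 ± 0.21), NEAT1 at 111 and 116 and 9.42 and 10.8 CPM (−3.50 ± 0.13), and MEG3 at 134 and 133 and 4.07 and 4.34 CPM (−4.99 ± 0.13). None of the 3 was absent from polysomes, and PVT1 was called higher (1.58). Host genes of small nucleolar RNAs, spliced RNAs with little coding potential, were the opposite. Of 23 tested 19 were called higher and 3 lower (median 1.87). ZFAS1 rose from 13.7 and 11.3 to 175 and 202 CPM (3.91 ± 0.16) and GAS5 by 2.33, and CYTOR, a cytoplasmic long RNA counted in this list, stood at 26.8 and 27.8 CPM in total and 356 and 380.1 CPM in polysomal RNA (3.75).

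Coding length ordered the fold changes across the 12596 tested protein-coding nuclear genes with a matched annotation (GENCODE v29). Genes with a coding part under 300 nt were called higher in 82.0% and lower in 6.34% of 205 cases, with a median log2 fold change of 2.14. At 300 to 599 nt the median was 1.6, at 600 to 899 nt 0.94, at 900 to 1199 nt 0.48 and from 1200 to under 1800 nt −0.09. It then went to −0.70 from 1800 to under 2700 nt, −1.49 at 2700 to 4499 nt, −2.31 at 4500 to 8999 nt and −2.97 at 9000 nt or more, where 1.69% of 118 genes were called higher and 87.3% lower. The median fell with every step in length, in both polysome libraries: on the log2(CPM + 1) scale polysome replicates 1 and 2 had 1.99 and 1.77 for the shortest genes and −2.18 and −2.66 for the longest. Across genes, which are not independent replicates, Pearson's r of the fold change with log2 coding length was −0.58 and Spearman's rho −0.62. Whole transcript length had values of −0.57 and −0.62. Ribosomal protein and respiratory chain genes did not carry the order: without them the median was 1.85 under 300 nt and −2.97 at 9000 nt or more.

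**Figure D5:**
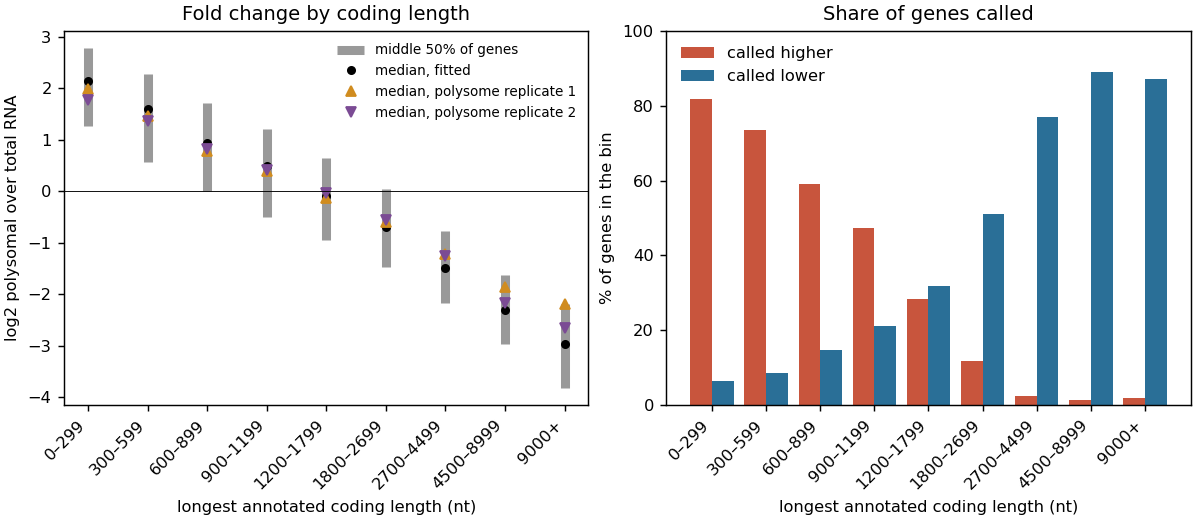
Log2 fold change of polysomal over total RNA by coding length. The left panel gives the middle 50% of genes and the medians, fitted and per polysome library, in bins of the longest annotated coding length (nt), and the right panel the percent of genes in each bin called higher or lower: the fitted medians step down from 2.14 in the shortest bin to −2.97 in the longest, and the share called higher from 82.0% to 1.69%.

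Untranslated regions added a smaller trend and base composition next to none. Pearson's r across genes was −0.28 for the log2 of the 3′ untranslated length (12386 genes), −0.09 for that of the 5′ untranslated length (12216 genes) and −0.01 for the GC content of the coding part (12596 genes). Among genes with a coding part from 900 to under 1800 nt, the median went from 0.74 with a 3′ untranslated region under 250 nt to −0.67 at 4000 nt or more. Among genes with a 3′ untranslated region from 500 to under 2000 nt, coding length still ordered the medians, from 1.90 under 300 nt to −2.97 at 9000 nt or more. Upstream ATG triplets went with little: for coding parts from 900 to under 1800 nt the median was 0.16 with none and −0.07 with 6 or more.

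Some genes went against the order. Of those with a mean log2 CPM of at least 3, 8 with a coding part under 600 nt were lower by at least 4-fold. EDN2, an endothelin, stood at 57.6 and 59.7 CPM in total and 3.90 and 6.47 CPM in polysomal RNA (−3.51 ± 0.24), and APLN, the peptide apelin, at 73.8 and 72.2 and 4.85 and 9.28 CPM (−3.37 ± 0.30). The others were MAFG (−2.53), FAM168B (−2.51), ZNF740 (−2.47), TNFAIP8L1 (−2.46), STMN3 (−2.15) and the pro-apoptotic BCL2L11 (−2.08). EDN2 and EDN1 encode sister peptides, and EDN1 was higher by 3.46 in the same libraries.

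At the other end, with the same limit on the level, 8 genes with a coding part of at least 1800 nt were higher by at least 4-fold. HHIP, which binds Hedgehog ligands, rose from 5.08 and 5.42 to 42.2 and 55.2 CPM (3.21 ± 0.19), NEDD9, an adhesion scaffold, from 3.24 and 3.78 to 27.9 and 27.4 CPM (2.98 ± 0.17), and PCK2, the mitochondrial phosphoenolpyruvate carboxykinase, from 15.1 and 15.6 to 109 and 126 CPM (2.94 ± 0.13). The others were TGFBI, PDLIM2 (2.17), ZFPM1 (2.15), CAMTA1 (2.24) and NACA (2.34). The annotated coding part is that of the longest form, and NACA has a short form that is the usual one outside muscle, so its length here may not be the one expressed.

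The contrast came out alike in the knockdown cells. Of the 10404 scramble calls 10125 could be tested there, 10018 (98.9%) had the same direction and 8340 (82.4%) were also called in it, against 3 called in the opposite one. By coding length the knockdown medians went from 1.84 under 300 nt to −3.10 at 9000 nt or more. In knockdown cells 4151 genes were called higher and 5300 lower of 15331. The log2 fold changes of the marker genes there were 5.03 for NOX4, 3.82 for ID1, 4.97 for CLIC3, −6.43 for HSPG2 and −6.29 for DCHS1. Pearson's r of the fold changes under both hairpins across 14782 genes was 0.868. A test of the difference itself, the interaction of hairpin and fraction over all 8 libraries, called 0 of 15358 genes by edgeR, with 980 at an unadjusted p under 0.05, and no other tool was run on it. This does not show that the contrast was equal in both.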

How the data were processed

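Paired-end RNA-seq after poly(A) selection was read in 2 libraries of total and 2 of polysomal RNA. The authors deposited raw counts per gene symbol. Per the submitters' processing notes the build was GRCh38 and the tools included HISAT2 2.1.0 and, from Subread 2.0.1, featureCounts, as well as Trimmomatic 0.36, in no stated order. Gene annotation and strand setting are not given in the sources used here. Triplicates are mentioned in the design text, and 2 libraries per group were analysed here.

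Genes with at least 10 counts in 2 of the 4 libraries were scaled by TMM and fitted with edgeR 4.0.16 (R 4.3.3; robust quasi-likelihood, no block, 2 residual degrees of freedom), after the script had been tested on simulated data. The adjustment was that of Benjamini and Hochberg over all 15358 genes, with a threshold of 0.05. Standard errors came from the log2 fold change over the root of the F statistic. Alternatives used DESeq2 1.42.0, limma 3.58.1, other scalings and filters, a replicate block and each library left out. GENCODE v29 matched 14139 symbols (92.1%), and RefSeq windows 10200 protein-coding genes (80.9%). Coding length is that of the longest annotated form.

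Members and lists were chosen with earlier results of these data known, so no list was tested. Named genes are the markers, EIF4G2, the 10 largest changes in each direction and, in each list, the 3 of smallest p and the most abundant. Further examples were chosen after their values were seen, and a few genes are not reported here.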

Additional observations from a re-analysis of the deposited data

How the results depend on the processing

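The count of genes called higher ran from 3695 to 5812 and of genes called lower from 3925 to 6799 when each library was left out in turn. Such fits assume that the lone library varies like the other group. With library totals alone 2264 genes were called higher and 8868 lower. Every other setting stayed within 1.5 times of both counts: DESeq2 gave 4686 and 5027, limma voom 5113 and 5387, a test against 1.5-fold 3836 and 4270, and no filter 5073 and 6485. With a replicate block the counts were 4886 and 5500. The replicate 1 minus replicate 2 differences of both fractions had an r of 0.03 across genes. This cannot decide whether equal numbers mark paired libraries, since the polysome libraries varied far more than the total ones. The block ended the calls of HSPG2 and PECAM1 among the named genes.

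Some signs changed. With library totals alone, which lowered the median of all genes to −1.13, these were EIF4G2 (−0.85), ATP5F1B (−0.21), PSMD2 (−0.95), TARS1 (−0.14), SERPINH1 (−0.75), CALR (−0.25), PECAM1 (−0.22), CD14 (−0.97), KRT8 (−0.21) and CLDN4 (−0.072), and the medians of initiation factors (−0.39), tRNA synthetases (−0.41), iron and polyamine genes (−0.54), collagen processing (−0.75), cytokines (−0.20), secretory genes (−0.15), cell cycle (−0.91), glycolysis (−0.047) and sterol genes (−0.55). With the trend on transcript length removed they were COL4A1 (0.85), THBS1 (0.30), ZNF24 (0.34) and SCD (0.60), and the medians of all genes (0.18), upstream-frame stress genes (0.43), matrix (0.057), TGFb receptors and SMADs (0.19) and zinc finger genes (0.26). Without a filter they were PSMD2 (−0.037), CD14 (−0.060) and the cell cycle median (−0.053). With each library left out in turn, PSMD2 ran from −0.035 to 0.11, LRP10 from −0.26 to 0.059, STC2 from −0.49 to 0.12, CD14 from −0.11 to 0.13 and the stress median from −0.34 to 0.14. Library totals hold no correction for composition, and the cause of the other changes was not tested.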

Other observations

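Some genes were counted in a single fraction. Such genes pass the count filter only through the fraction that holds them, so their direction was fixed by the filter. Of the tested genes 12 had no count in either total library, and all 12 were seen in the polysome libraries of the knockdown cells too. In the knockdown total libraries 5 of the 12 had no count. NKAIN4, a membrane protein gene, had 246 and 161 counts in polysomal RNA and was at least 220-fold higher against a floor of 3 counts over both total libraries. AMTN, which encodes the enamel protein amelotin, had 125 and 117 counts and was at least 131-fold higher. It also had no count in the knockdown total libraries and 123 and 121 in the knockdown polysome libraries. GZMA, a protease of cytotoxic lymphocytes, had 41 and 25 polysome counts and C5orf46 had 37 and 19. These genes were chosen after their values were seen.

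In the other direction 407 tested genes, 133 of them protein-coding, had no count in either polysome library, and 284 of these had none in the knockdown polysome libraries. FLG, the giant epidermal protein filaggrin, had 109 and 57 counts in total RNA and was at least 34.2-fold lower.

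By annotated class, 56.5% of the 356 tested processed pseudogenes were called higher and 11.5% lower, with a median log2 fold change of 1.51. Many are intronless copies of short mRNAs, and reads shared with the parent genes were not tested for. Of 312 lincRNAs 36.9% were called higher and 16.0% lower (median 0.70). Protein-coding genes, 12609 in number, had 32.9% higher and 37.7% lower (median −0.17).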
